A study of Rattus norvegicus with 6 samples.

Results

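The potassium channels of the artery wall were represented by 9 genes, chosen by name from the channel classes known in vascular smooth muscle: Kcnma1 and Kcnmb1 (large-conductance calcium-activated, or BK), Kcna2, Kcna5 and Kcnd3 (voltage-gated, or Kv), Kcnj2 (inward rectifier, or Kir), Kcnj8 and Abcc9 (ATP-sensitive, or K-ATP) and Kcnk3 (tandem-pore leak). The choice was made with earlier results of these data known. All 9 were on the array, through 16 of the 15866 probe sets (groups of short probes for 1 transcript), and they are 9 of 10411 genes with a name there. The RNA came from intact cerebral arteries of Dahl rats, middle and posterior cerebral and posterior cerebellar branches. High salt rats were put on chow with 8% NaCl at 7 weeks of age, and low salt rats on chow with 0.4% NaCl at the same age. Each of 3 arrays per diet held RNA pooled from 3 rats, 9 rats per diet. Low salt rats stayed on their diet for 12 weeks, and for high salt rats the labels disagree, with 11 weeks in a characteristic and 12 weeks in a protocol. Both groups ate the low salt chow until the diets began, the wall was not separated into cell types, and the labels do not say which pools were snap frozen and which were kept in preservative.

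Potassium ions leaving a smooth muscle cell through these channels make its membrane potential more negative, which closes voltage-gated calcium channels and relaxes the artery. BK and Kv channels open when the muscle is depolarised and so limit constriction by pressure. Kir and K-ATP channels carry dilator signals from neighbouring cells and from metabolism, and tandem-pore channels pass a steady leak current at rest. In hypertension, changes of BK and Kv current in cerebral arteries are a long-studied theme.

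The study asked which genes differ in arteries of salt-fed rats. Every one of the 9 channel genes averaged lower after high salt on its main probe set, the brightest of the gene, with differences from -0.62 to -0.09 log2 units, but none passed the test (0 of 9, limma with Benjamini-Hochberg adjustment over all probe sets, lowest adjusted p = 0.803). Over all 15866 probe sets 0 were called, or 0.00%. At an unadjusted p below 0.05, 1 of the 9 channel genes was lower, beside 0.711% of all genes, and 0 were higher, beside 5.72%. Of the 16 probe sets 15 were lower, beside 44.9% of all probe sets. The largest differences were those of Kcna5 (-0.62 ± 0.24, SE), Abcc9 (-0.61 ± 0.28) and Kcnma1 (-0.36 ± 0.17), the 3 main probe sets whose difference exceeded 2 SE. The median over the 9 genes was -0.21, beside 0.07 over all 10411 genes, and 0 of the 9 were higher, beside 60.0% of all genes. That share depended on level. In the lowest level quintile of genes, which holds Kcnd3 and Kcnj2, 67.9% were lower (median difference -0.043), and in the next, with Kcna2, Kcnj8, Abcc9 and Kcnk3, 51.8% (-0.0095). In the middle quintile, with Kcnmb1 and Kcna5, 33.2% of genes were lower (median 0.14), and in the brightest, with Kcnma1, 22.0% (0.26). For 6 of the 9 genes, most genes of like level were thus lower too, though for 4 of the 6 only just (51.8%). That likeness is of sign and not of size. All 9 were also lower after median centring (57.2% of all genes) and quantile normalization (53.7%), with 4 and 2 of them at an unadjusted p below 0.05 (2.55% and 2.59% of all genes). The 11 measured smooth muscle markers differed unevenly, by -0.74 (Myl9) to -0.06 (Des), with a median of -0.17. Centring each array on their mean added 0.31 to every difference, a shift larger in size than that median and set more by the markers that differed most. On that scale 3 of the 9 genes were lower, beside 3.78% of all genes, with 0 lower at an unadjusted p below 0.05 (0.0768% of all genes), and the sign of each follows from the size of its deposited difference.

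Promoter windows are shown for the 4 genes with the largest differences, which include 3 whose difference exceeded 2 SE and Kcnmb1, whose difference did not. RefSeq's table (build GRCr8) held a window, 250 bases before and 50 bases after the start it uses, for 8 of the 9 genes. The windows lie at chr4:161043760-161044059 on the minus strand for Kcna5, chr4:177386299-177386598 on the minus strand for Abcc9, chr15:351675-351974 on the plus strand for Kcnma1 and chr10:19061849-19062148 on the plus strand for Kcnmb1. Capitals mark GGAAA, the core bound by NFAT factors and shared with the sites of other factors, on either strand, so that a match on the opposite strand reads TTTCC.
Kcna5: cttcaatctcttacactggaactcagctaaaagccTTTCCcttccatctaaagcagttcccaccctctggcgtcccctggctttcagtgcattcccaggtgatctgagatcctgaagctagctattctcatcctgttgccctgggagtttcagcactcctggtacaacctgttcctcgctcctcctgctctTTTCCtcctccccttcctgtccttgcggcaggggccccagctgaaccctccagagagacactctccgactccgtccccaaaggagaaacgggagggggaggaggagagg
Abcc9: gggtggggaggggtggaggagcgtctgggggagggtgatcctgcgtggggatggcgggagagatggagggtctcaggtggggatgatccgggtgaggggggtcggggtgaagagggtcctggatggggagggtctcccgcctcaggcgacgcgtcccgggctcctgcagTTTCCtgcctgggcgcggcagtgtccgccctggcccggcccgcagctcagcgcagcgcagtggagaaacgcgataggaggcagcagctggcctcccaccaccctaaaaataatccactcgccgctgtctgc
Kcnma1: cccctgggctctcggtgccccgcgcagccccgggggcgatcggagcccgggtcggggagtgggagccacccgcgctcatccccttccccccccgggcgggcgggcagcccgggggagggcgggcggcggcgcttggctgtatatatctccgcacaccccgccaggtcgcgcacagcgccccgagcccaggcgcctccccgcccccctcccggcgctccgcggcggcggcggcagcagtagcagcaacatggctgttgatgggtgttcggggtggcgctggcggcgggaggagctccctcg
Kcnmb1: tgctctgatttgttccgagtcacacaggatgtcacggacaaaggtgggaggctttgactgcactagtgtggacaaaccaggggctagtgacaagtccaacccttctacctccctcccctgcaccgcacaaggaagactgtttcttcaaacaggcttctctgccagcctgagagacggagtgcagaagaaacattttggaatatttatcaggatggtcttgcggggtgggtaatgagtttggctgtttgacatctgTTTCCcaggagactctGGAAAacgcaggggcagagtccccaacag
NFAT factors, switched by calcineurin, are known from rodent arteries to act on BK and Kv subunit genes, which is why this core was searched. Of the 8 windows 4 held it, those of Kcna5 (at 215 and 59 bases before the start), Abcc9 (81 before), Kcnmb1 (at bases 6 and 22 after it) and Kcnj8 (93 before). It was in 62.7% of all 33469 windows of the table, so that its presence does not set these genes apart. The TATA box (TATAAA) and the CArG box, the element of serum response factor in smooth muscle genes, were searched on both strands. They were in 0 of the 8, beside 14.2% and 1.64% of all windows. Among windows of genes on the array the shares were 8.83% and 1.48%, so that their absence does not set these genes apart. The E box (CANNTG) was in 5 of the 8, beside 72.1% of all windows, and the CCAAT box in 2, beside 37.5%. The window of Kcnma1 was 78.3% G and C and held GGGCGG at 5 places, some of them sharing bases, while that of Kcnmb1 was 51.7% and held none. GGGCGG was in 6 of the 8 windows, beside 33.1% of all windows and 58.5% of those of genes on the array.

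The tissue label was checked against markers, and all 11 measured smooth muscle markers lay above the median level of the arrays, with Tagln, an actin-binding protein of smooth muscle, as the brightest. So did 8 of 9 endothelial, 8 of 10 astrocyte, 5 of 8 pericyte and 2 of 10 neuron markers, and 6190 of all 10411 genes. Smooth muscle markers averaged 11.66, 11.51 and 11.55 log2 units on high salt replicates 1, 2 and 3, against 12.04, 11.41 and 12.20 on low salt replicates 1, 2 and 3. Astrocyte markers, of cells whose endfeet cover brain vessels, averaged 10.56, 10.24 and 10.30 after high salt, against 9.22, 10.55 and 8.55 after low salt. Low salt replicate 2 was thus close to the high salt arrays in both. All 11 smooth muscle markers averaged lower after high salt (median difference -0.17) and 9 of 10 astrocyte markers higher (median 0.79), with 0 called in either list. Endothelial markers ranged from 10.35 to 10.52 after high salt and from 9.82 to 10.49 after low salt, pericyte markers from 8.82 to 8.87 and from 8.60 to 8.91, and neuron markers from 7.28 to 7.48 and from 7.08 to 7.56, with 4 of the 10 neuron markers below the 25th percentile of level. The brightest markers of these lists were Gja1 (astrocyte), Cldn5 (endothelial), Vtn (pericyte) and Eno2 (neuron). Means of 3 red cell markers ranged from 10.46 to 11.18 after high salt and from 10.03 to 10.22 after low salt, and those of 7 macrophage and microglia markers from 9.21 to 9.57 and from 8.40 to 9.24. The part of these cells in the channel values was not tested. In whole arteries, fewer cells of a type and less RNA per cell cannot be told apart.

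**Figure D1:**
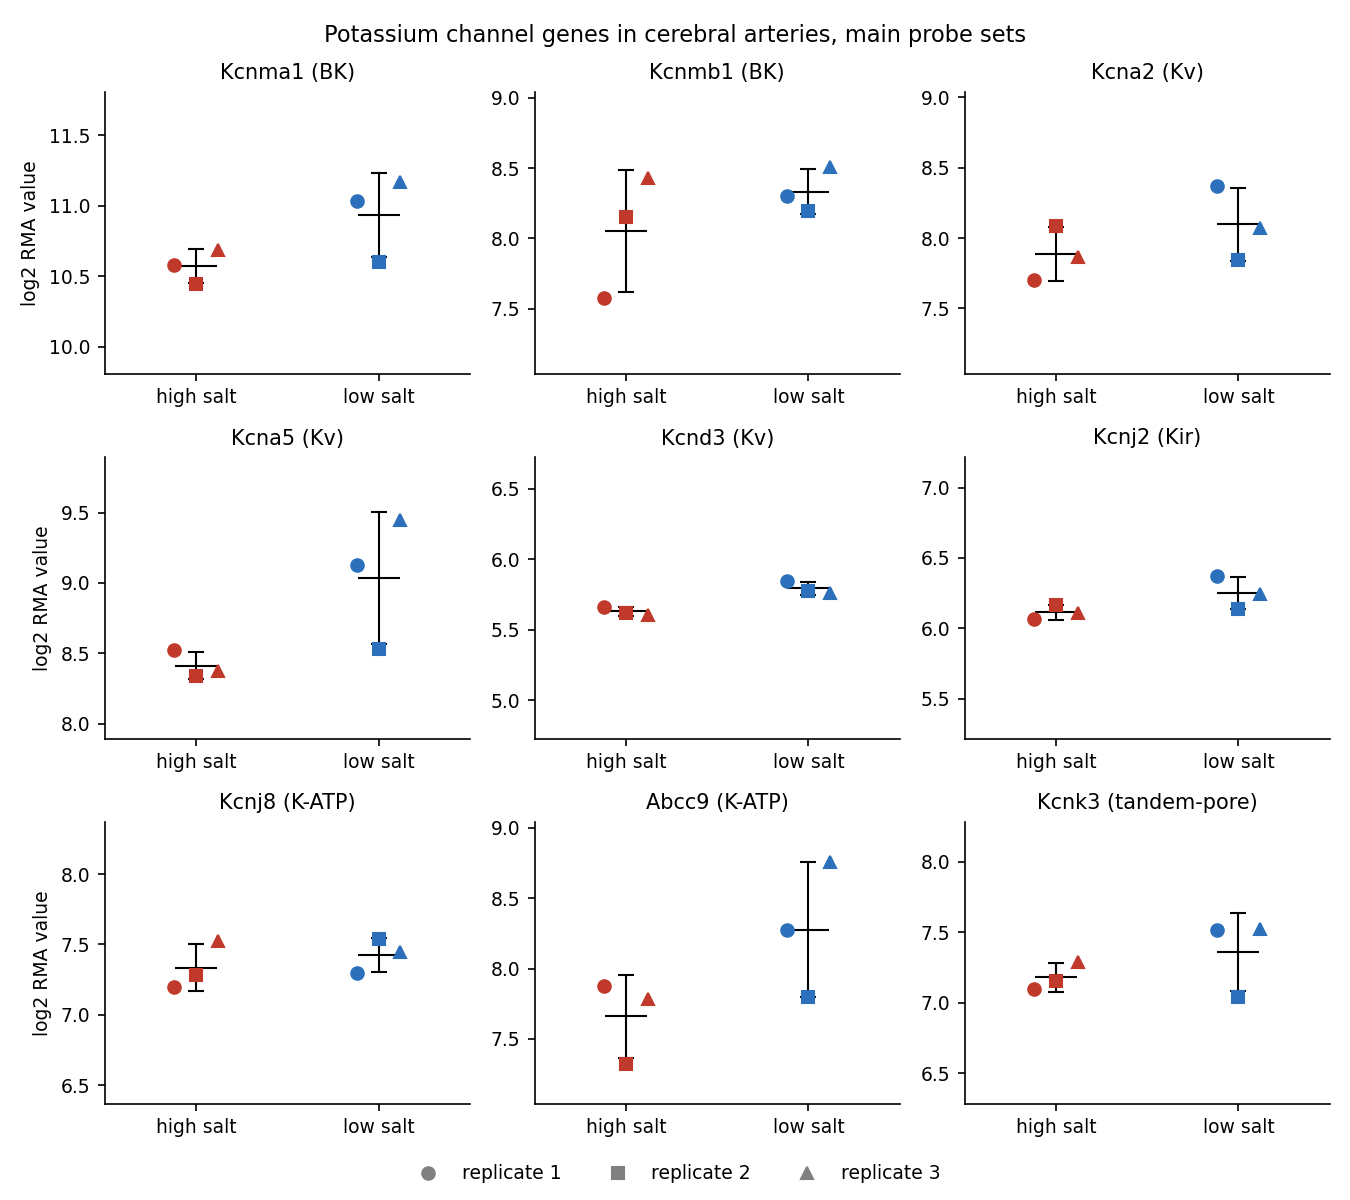
Log2 RMA values (RMA, the authors' summary of the probes of a set) of the main probe set of each gene. Points are arrays, shaped by replicate, with high salt left and low salt right. The horizontal line is the mean and the bar the SD of 3 arrays, and every panel spans 2 log2 units. In Kcna5, Abcc9, Kcnma1 and Kcnk3 low salt replicate 2 lies with the high salt arrays, and Kcna5 and Kcnd3 do not overlap between diets.

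BK channels consist of the pore-forming alpha subunit Kcnma1 and, in smooth muscle, the beta1 subunit Kcnmb1, which makes the pore more sensitive to calcium. Kcnma1 stood at 10.58, 10.44 and 10.69 log2 units after high salt, against 11.03, 10.60 and 11.17 after low salt. Low salt replicates 1 and 3 lay above every high salt array, and replicate 2 within their range. Kcnma1 averaged 10.57 ± 0.12 after high salt and 10.93 ± 0.30 after low salt (SD, n = 3 each), a difference of -0.36 ± 0.17 (SE), or 1.28-fold lower (limma, adjusted p = 0.803). The difference was -0.59 after quantile normalization and -0.05 ± 0.29 on the smooth muscle scale, and leaving out 1 array gave -0.53 (low salt replicate 2) to -0.24 (low salt replicate 3).

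The 2 other probe sets of Kcnma1 were much dimmer (means of 6.74 and 6.42) and also averaged lower, by -0.15 ± 0.12 and -0.28 ± 0.16, with overlap between diets in both. Probe sets of a gene differ in how well they bind and in which transcripts they read, so that their levels are not compared.

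Kcnmb1 stood at 7.58, 8.15 and 8.43 after high salt, against 8.30, 8.19 and 8.50 after low salt. High salt replicate 1 was the lowest array and high salt replicate 3 exceeded low salt replicates 1 and 2, so that the diets overlapped. The difference was -0.28 ± 0.24 (limma, adjusted p = 0.803), and it was -0.04 without high salt replicate 1 and -0.47 without high salt replicate 3. The log2 ratio of Kcnmb1 to Kcnma1 within an array differed by 0.08 between diets, at -3.01, -2.29 and -2.26 after high salt, against -2.73, -2.41 and -2.67 after low salt (exact permutation test, two-sided, p = 0.8, adjusted 0.8 over 3 pairs of subunits). With 3 arrays against 3 that test cannot go below 0.1.

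Kv channels opened by depolarisation were represented by Kcna5 and Kcna2, pore subunits that carry delayed rectifier current, and by Kcnd3, a pore subunit of transient A-type current. Kcna5 stood at 8.53, 8.34 and 8.38 after high salt, against 9.13, 8.53 and 9.45 after low salt. The diets did not overlap, but by a margin of 0.0044 between high salt replicate 1 and low salt replicate 2. Kcna5 averaged 8.41 ± 0.10 after high salt and 9.04 ± 0.47 after low salt (SD, n = 3 each), a difference of -0.62 ± 0.24 (SE), or 1.54-fold lower (limma, adjusted p = 0.803, unadjusted p = 0.043). Of all genes 0.672% had a lower difference. Without low salt replicate 2 it was -0.88 ± 0.14, with the lowest adjusted p of any channel gene in any setting (limma, 0.135), and leaving out low salt replicate 3 gave -0.42 ± 0.21.

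Kcna2 stood at 7.70, 8.09 and 7.87 after high salt, against 8.37, 7.85 and 8.07 after low salt. High salt replicate 2 exceeded low salt replicates 2 and 3, so that the groups overlapped. The difference was -0.21 ± 0.18, -0.34 on either rescaled version of the arrays, -0.07 with low salt replicate 1 left out, and -0.34 with low salt replicate 2 left out. The log2 ratio of Kcna5 to Kcna2 within an array was 0.82, 0.25 and 0.51 after high salt, against 0.76, 0.69 and 1.38 after low salt, a difference of -0.41 (exact permutation test, two-sided, p = 0.3, adjusted 0.45 over 3 pairs).

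Kcnd3 stood at 5.66, 5.62 and 5.61 after high salt, against 5.85, 5.78 and 5.76 after low salt. The groups did not overlap, with a difference of -0.16 ± 0.09, at a dim level, the 9.94 percentile of all probe sets. A second, dimmer probe set gave -0.17 ± 0.15 with overlap. After median centring the difference was -0.30. Kcna5 and Kcnd3 were the 2 of 9 channel genes that did not overlap on the low side, beside 3.32% of all genes, and 0 did so on the high side, beside 8.64%.

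Kcnj2, the pore subunit of the inward rectifier that dilates cerebral arteries when potassium outside the cell rises, stood at 6.06, 6.17 and 6.11 after high salt, against 6.37, 6.14 and 6.24 after low salt. Low salt replicate 2 lay below high salt replicate 2, so that the groups overlapped slightly. The difference was -0.14 ± 0.10, -0.27 after median centring and -0.08 without low salt replicate 1. The probe set was dim, at the 17.9 percentile of all probe sets.

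K-ATP channels of vascular muscle and pericytes join the pore subunit Kcnj8 with the sulfonylurea receptor Abcc9, which lets ATP, ADP and drugs set their opening. The genes are neighbours on chromosome 4, with 0 annotated genes between them. Abcc9 stood at 7.88, 7.32 and 7.78 after high salt, against 8.28, 7.80 and 8.76 after low salt. High salt replicate 1 just exceeded low salt replicate 2, and the other arrays kept apart. Abcc9 averaged 7.66 ± 0.30 after high salt and 8.28 ± 0.48 after low salt (SD, n = 3 each), a difference of -0.61 ± 0.28 (SE), or 1.53-fold lower (limma, adjusted p = 0.803).

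Of all genes 0.701% had a lower difference than Abcc9. It was -0.85 without low salt replicate 2, -0.37 when low salt replicate 3 was left out and -0.34 as the mean of the gene's 3 probe sets. The other probe sets of Abcc9 gave -0.32 ± 0.17 and -0.10 ± 0.10, and both overlapped. The first of them stood at 6.22, 6.31 and 6.29 after high salt, against 6.81, 6.24 and 6.73 after low salt, with low salt replicate 2 again among the high salt arrays.

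Kcnj8 stood at 7.20, 7.28 and 7.52 after high salt, against 7.30, 7.54 and 7.44 after low salt. The arrays of both diets were interleaved, and the difference of -0.09 ± 0.13 was the smallest of the 9 genes in size. It was -0.22 after median centring, and leaving out 1 array gave -0.19 (high salt replicate 3) to -0.02 (high salt replicate 1). The log2 ratio of Abcc9 to Kcnj8 within an array was 0.68, 0.04 and 0.26 after high salt, against 0.98, 0.26 and 1.31 after low salt, a difference of -0.52 (exact permutation test, two-sided, p = 0.3, adjusted 0.45 over 3 pairs). The ratio overlapped between the diets.

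Kcnk3, a leak channel that closes in acid and sets the resting potential, stood at 7.09, 7.15 and 7.29 after high salt, against 7.52, 7.04 and 7.52 after low salt. Low salt replicate 2 was the lowest of all 6 arrays, and replicates 1 and 3 the highest. The difference was -0.18 ± 0.16, -0.34 without low salt replicate 2, -0.10 without low salt replicate 1 or 3, and -0.07 as the mean of its 3 probe sets. The other probe sets gave 0.03 ± 0.14 and -0.05 ± 0.16, within their SE of 0. Of the 7 other probe sets of the 4 genes with more than 1, 6 were lower and 1 was higher, 0 differed by more than 2 SE, and 6 lay below the 30th percentile of level.

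**Figure D2:**
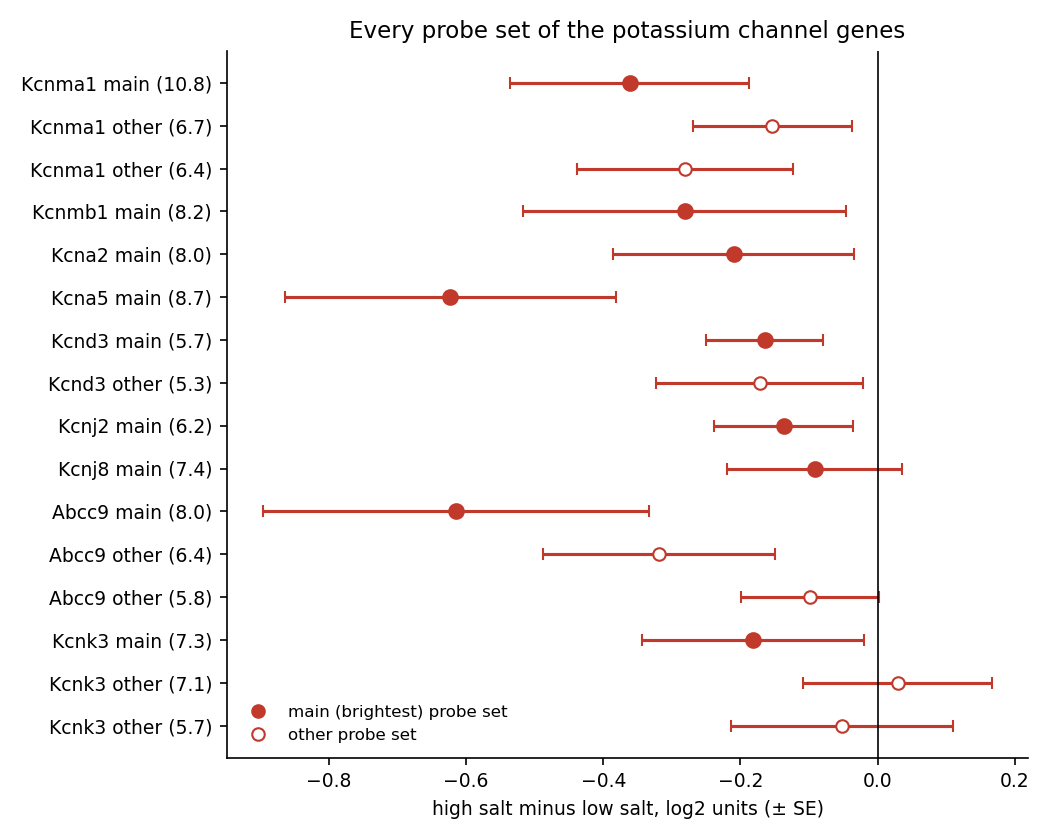
Difference between diets (high salt minus low salt, log2 units) for all 16 probe sets, grouped by gene, with the moderated SE from limma as bars and the mean level over 6 arrays in parentheses. Filled points are the brightest probe set of a gene. Of 16 points 15 lie left of 0, and only 3 of the filled points lie more than 2 SE from it.

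The order of the arrays was alike for several of the genes. Low salt replicate 3 was the highest array for 5 of the 9 genes (Kcnma1, Kcnmb1, Kcna5, Abcc9 and Kcnk3) and low salt replicate 1 for 3 (Kcna2, Kcnd3 and Kcnj2), while a high salt array was the highest for 0. High salt replicate 1 was the lowest for 4 and high salt replicate 2 for 3. Likeness of pattern was measured as the root mean square difference of centred log2 values over the 6 arrays, among 6190 genes above the median level. The gene closest to Abcc9 was Kcna5 (0.14), followed by Synpo2, an actin-binding protein of smooth muscle (0.14), and Hrc, a calcium-binding protein of the sarcoplasmic reticulum (0.18). Closest to Kcnma1 were Gja4, a connexin of the artery wall (0.08), Galnt16 (0.08) and Rassf4 (0.09). For Kcna5 they were Gls2 (0.12), Crip1 (0.15) and Pgf, placental growth factor (0.15). Abcc9, at the 47.3 percentile of level, was not among the 6190 genes searched, though its distance from Kcna5 was 0.14. All genes read on an array share its RNA pool and its scale. Kcnma1 spanned 0.73 log2 units over the arrays, Kcna5 1.11 and Abcc9 1.43, and the closest of so many genes over 6 arrays are a description only. Closest to Kcnj2 were Gcnt3, Lyrm9 and Acot13 (0.03 to 0.04), and closest to Kcnk3 were Shank1, Sptan1 and Tmem101 (0.073 to 0.075), where Kcnj2 spanned 0.31 and Kcnk3 0.48 log2 units over the arrays.

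**Figure D3:**
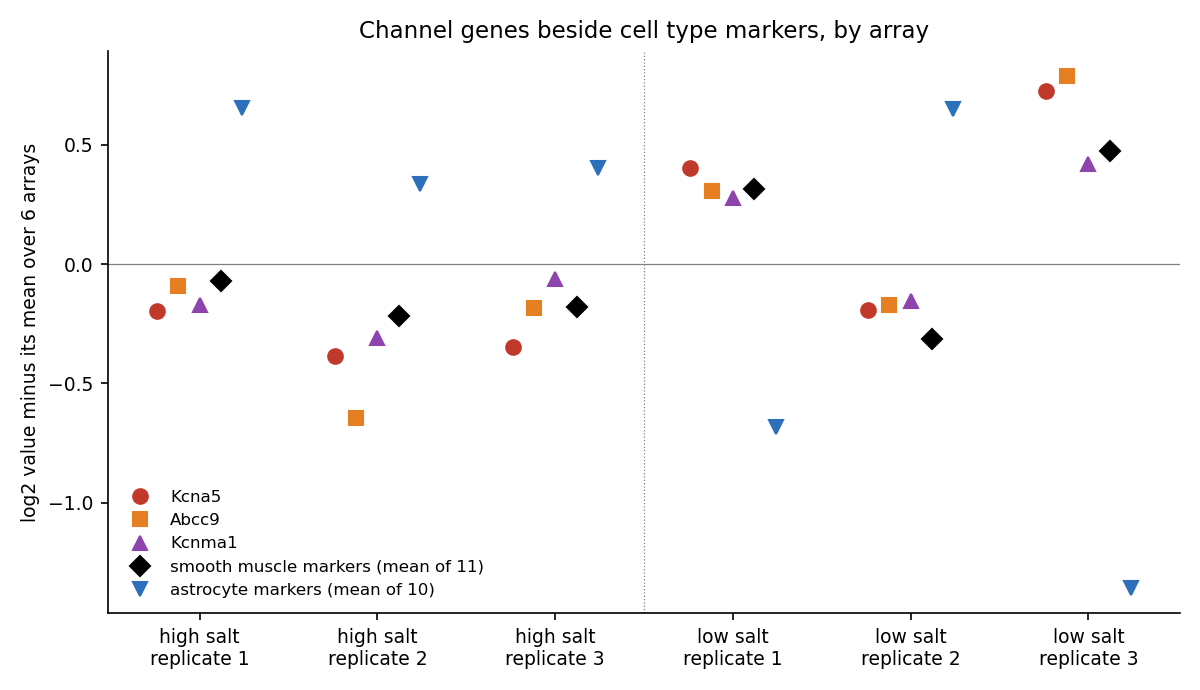
Log2 values of Kcna5, Abcc9 and Kcnma1 on each array, less their mean over the 6 arrays, beside the mean of 11 smooth muscle and of 10 astrocyte markers centred in the same way. The channel genes and the smooth muscle markers lie above 0 on low salt replicates 1 and 3 and below 0 on the other 4 arrays, where the astrocyte markers lie above 0.

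Each channel gene was also set against the mean of the 11 smooth muscle markers in the same array, a setting chosen after seeing the data. On this scale Kcna5 stood at -3.13, -3.17 and -3.17 after high salt, against -2.91, -2.88 and -2.75 after low salt. The groups did not overlap and the difference was -0.31. The SD was 0.022 after high salt and 0.085 after low salt (n = 3 each). The share of all genes without overlap on this scale was not counted. The exact permutation test (two-sided) gave p = 0.1, the smallest it can give, and 0.771 adjusted over the 9 genes, and limma gave an SE of 0.28 (adjusted p = 0.607). Abcc9 differed by -0.30 and Kcnma1 by -0.05, with overlap in both. The differences of the other 6 genes were from 0.03 to 0.22, all below the median gene on this scale, at 0.38. Since the same 0.31 is added to every gene, a difference smaller in size than that turns positive by construction. What part the smooth muscle share of the pools has in the differences was not tested.

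**Figure D4:**
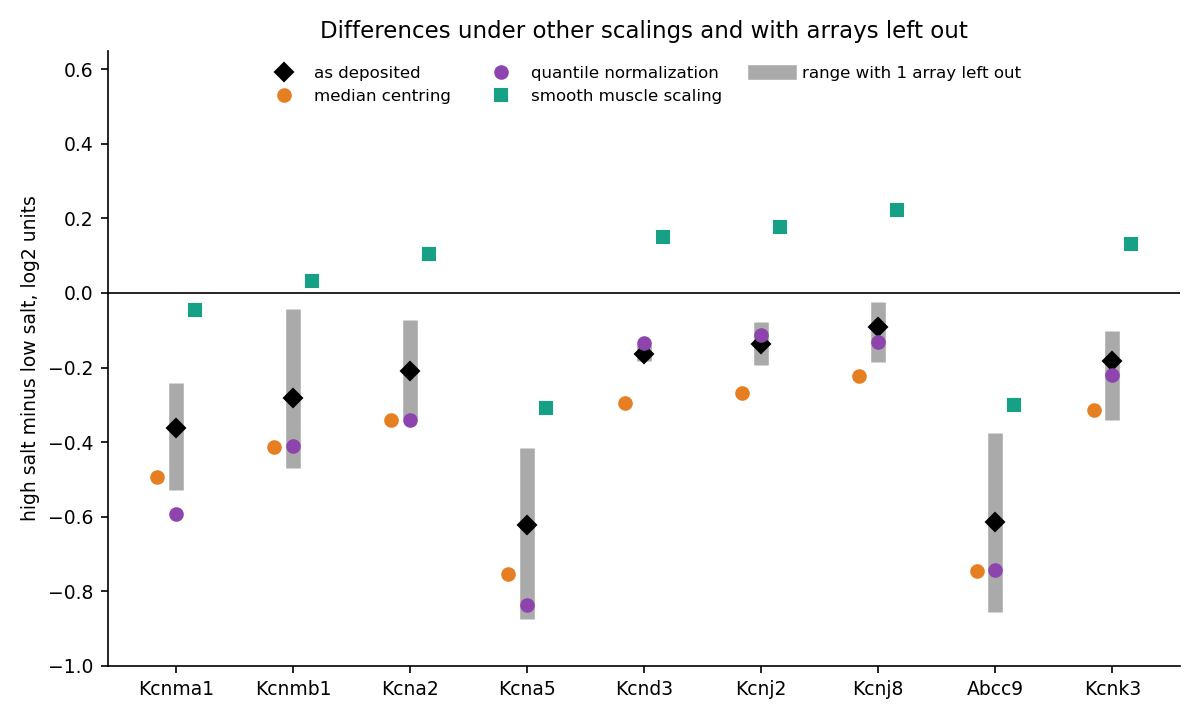
Difference between diets (log2 units) for the main probe set of each gene as deposited (black), after median centring (orange), after quantile normalization (purple) and against the mean of smooth muscle markers (green). Grey bars span the values with 1 array left out. The first 3 and the bars lie below 0 for all 9 genes, and the green points, each 0.31 above the black, lie above 0 for 6.

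Across the rest of the potassium channel genes, 66 genes named Kcn or Abcc8, 52 were lower and 14 higher, where 60.0% of all genes were higher. The median difference was -0.06, and 0 of the 66 passed the test (limma, lowest adjusted p = 0.803). At an unadjusted p below 0.05, 0 were lower, beside 0.711% of all genes, and 1 was higher, beside 5.72%. Of these genes 10 lay above the median level of the arrays, so that most of the list was dim. In the lowest level quintile of all genes 67.9% were lower, and in the next 51.8%. By kind, 22 of 27 other voltage-gated genes were lower, 13 of 14 other inward rectifier and K-ATP genes, 7 of 10 other tandem-pore genes, 7 of 10 auxiliary subunits and 3 of 5 other calcium- or sodium-activated genes. The diets did not overlap for 5 of 66 on the low side, beside 3.32% of all genes, and for 1 on the high side, beside 8.64%. After median centring, which added -0.13 to every difference, 62 of 66 were lower (57.2% of all genes), with a median of -0.19. After quantile normalization 51 were lower (53.7% of all genes), with a median of -0.09.

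The tandem-pore channel Kcnk2, a channel opened by stretch and lipids that astrocytes also express, was the brightest of these genes and had the largest difference. It stood at 10.66, 10.71 and 10.70 after high salt, against 8.50, 10.83 and 9.19 after low salt. Low salt replicate 2 exceeded every high salt array, and low salt replicates 1 and 3 were the lowest, as they were for the mean of the astrocyte markers. The difference was 1.18 ± 0.58 (limma, adjusted p = 0.803), 1.84 without low salt replicate 2 and 0.68 when replicate 1 of that diet was left out, and the part of astrocytes in it was not tested. Kcnk6, of the same family, differed by 0.31 ± 0.23 (0.08 without low salt replicate 1) and Kcnip2, a subunit that binds Kcnd channels, by 0.21 ± 0.14 (0.03 after quantile normalization). Kcnmb4, the BK beta subunit best known from neurons, differed by 0.05 ± 0.12 and turned lower after median centring and after quantile normalization. On the low side, the inward rectifier Kcnj4 differed by -0.23 ± 0.11 (-0.15 as the mean of its probe sets), Kcnj11, a K-ATP pore subunit, by -0.27 ± 0.19, Kcnh3 by -0.24 ± 0.23 and Kcnip3 by -0.17 ± 0.18. Without low salt replicate 1 Kcnj11 differed by -0.076, Kcnh3 by -0.00088 and Kcnip3 by -0.0095, and without low salt replicate 2 they differed by -0.42, -0.41 and -0.34.

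**Figure D5:**
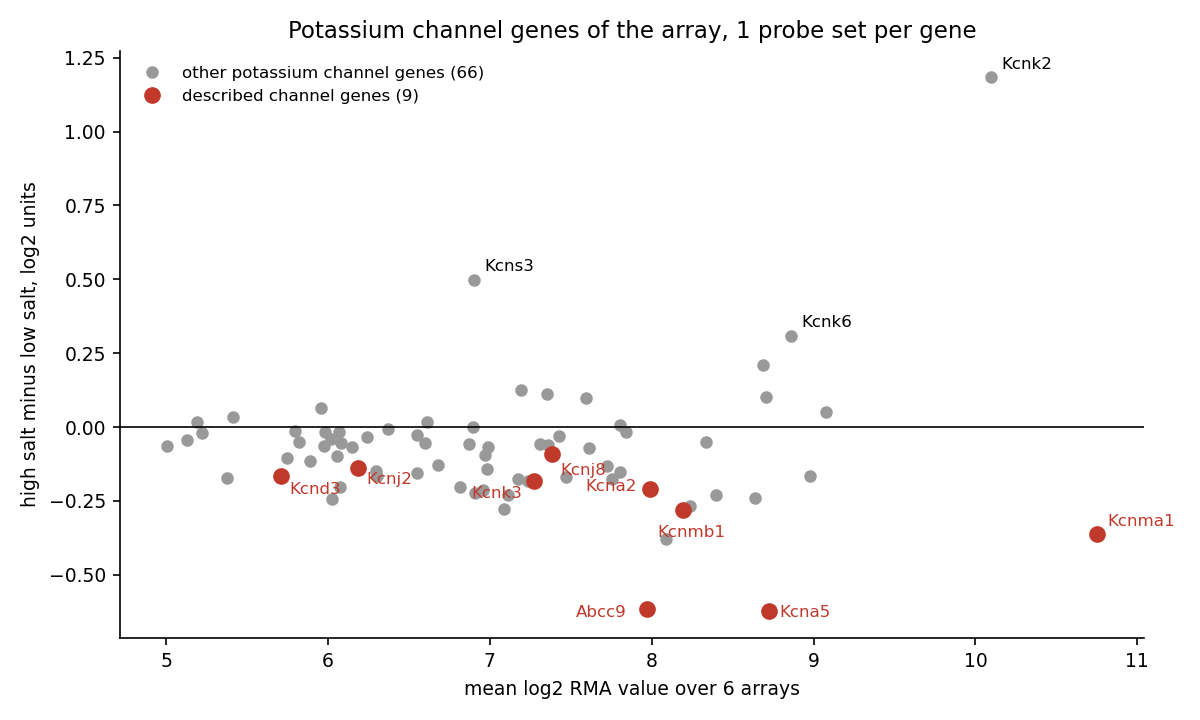
Mean log2 RMA value over 6 arrays (x axis) and difference between diets in log2 units (y axis) for 1 probe set per gene. Red points are the 9 channel genes described and grey points the 66 other potassium channel genes. Kcna5 and Abcc9 are the lowest of the 75 points, and Kcnk2 the highest.

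Genes that feed calcium to these channels or signal to them were read beside the channels. Of 18 measured genes of calcium entry, release and uptake, 11 were lower and 7 higher, with a median of -0.05, and 0 passed. Cacna1h, a T-type calcium channel, stood at 7.29, 7.30 and 7.16 after high salt, against 8.86, 7.16 and 8.46 after low salt, a difference of -0.91 ± 0.43. As in Kcna5, low salt replicate 2 was with the high salt arrays, and without it the difference was -1.41, against -0.56 without low salt replicate 1. Cacna2d1, an auxiliary calcium channel subunit, differed by 0.58 ± 0.32 (0.33 without high salt replicate 3 and 0.88 without high salt replicate 2). Trpc6, a cation channel of the pressure response, differed by 0.23 ± 0.12 at a dim level (7.44 percentile), by 0.14 without low salt replicate 1 and by 0.099 after median centring.

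Of 19 measured kinases, phosphatases and other regulators of the channels, 9 were lower and 10 higher, with a median of 0.01, and 0 passed. Prkcd, a protein kinase C isoform of the class that closes Kv and K-ATP channels, stood at 10.40, 10.10 and 10.32 after high salt, against 9.22, 9.90 and 9.93 after low salt. The groups did not overlap, and the difference was 0.59 ± 0.22 (limma, adjusted p = 0.803), or 0.36 after quantile normalization or without low salt replicate 1. Hmox2, a haem oxygenase whose product carbon monoxide opens BK channels, differed by 0.25 ± 0.12 (0.06 after quantile normalization), and the kinase Wnk1 by 0.68 ± 0.35 (0.14 as the mean of its probe sets and 0.29 without low salt replicate 1). Of the 19 genes 4 did not overlap on the high side, beside 8.64% of all genes, and 1 on the low side, beside 3.32%.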

How the data were processed

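Gene expression was measured on an Affymetrix rat array, 1 array per pool of 3 rats, after amplification of total RNA with a kit in which cDNA synthesis is repeated. The authors deposited log2 values, 1 per probe set and array, made with RMA, as named in the submitters' processing notes, with no version given in the sources used here, and the log base of 2 was read from the range of values and from the use of RMA. The file holds no detection calls, and the array medians still differed, from 7.96 to 8.17. The number of arrays limits the precision. Each replicate is a pool, so the spread holds both pool differences and technical error.

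Controls (57 of 15923 rows) did not enter the fit. Names came from the platform's annotation, where 12783 probe sets had 1 symbol, 312 several and 2771 none, with 12748 matched to RefSeq by Entrez identifier and 0 symbols changed. The brightest probe set, by mean over 6 arrays, stood for its gene. High salt was compared with low salt by limma (version 3.58.1, R 4.3.3; lmFit and eBayes, no block), with Benjamini-Hochberg adjustment over all 15866 probe sets and calls at an adjusted p below 0.05. Ratios within an array were compared by exact permutation tests (scipy 1.17.1). The limma step was tested on simulated data with noise drawn independently for each probe set, so deviations shared across an array were not part of it. The shifts added there were larger than any difference of the channel genes. The members, the gene lists and the rule for named genes were chosen with earlier results of these data known. That rule takes all members, the 2 brightest of the other potassium channel genes and up to 4 per direction with the lowest p above the median level, up to 3 partner genes per list with the lowest p, the 3 genes closest in pattern to the brightest member of each class, and the brightest gene of a marker list. Alternatives were centring on array medians, quantile normalization, dropping probe sets under the 40th percentile, a trended or a robust variance, weights per array, a block on replicate number, each array left out, 1 probe set per gene, averaging all probe sets of each gene, and, chosen after seeing the data, centring on smooth muscle markers.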

Additional observations from a re-analysis of the deposited data

How the results depend on the processing

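Under every alternative run 0 probe sets were called, and 0 channel genes, 0 other potassium channel genes and 0 partner genes, also with 1 array left out (0 to 0). Over all probe sets the lowest adjusted p (limma) was just above 0.05 without low salt replicate 2 (0.0501) and after centring on smooth muscle markers (0.0555). In the other alternatives it was 0.242 (array weights) or more. The lowest adjusted p of a channel gene ran from 0.135 (limma, without low salt replicate 2) to 0.999 (without low salt replicate 1). With the replicate block the counts were also 0 and the median over the 9 channel genes was -0.21; same-numbered arrays of both diets did not deviate together (correlations of 0.0377, -0.268 and 0.0441 over probe sets), so the numbers were not taken as pairs. With 1 array left out the median over the 9 channel genes ran from -0.34 to -0.14, and that over the 66 other potassium channel genes from -0.11 to -0.01. All 9 channel genes kept a negative difference in every planned setting that tested them, and the filter at the 40th percentile left 5 of them. Centring on smooth muscle markers added 0.31 to every difference, and median centring added -0.13, so the turns of sign under them follow from the size of the deposited difference. The marker centring moved the median of the channel genes to 0.10 and that of the other potassium channel genes to 0.25, and median centring moved that of the other genes to -0.19. On the smooth muscle scale the difference was positive for Kcnmb1 (0.033), Kcna2 (0.10), Kcnd3 (0.15), Kcnj2 (0.18), Kcnj8 (0.22) and Kcnk3 (0.13), and for Kcnj4 (0.084), Kcnj11 (0.047), Kcnh3 (0.074) and Kcnip3 (0.15). Kcnmb4 turned negative after median centring (-0.079) and quantile normalization (-0.18), and with 1 array left out it ran from -0.0068 (without high salt replicate 1) to 0.122 (without high salt replicate 2), and was below 0 also without low salt replicate 2. The cause of the turn under quantile normalization was not tested. The main probe sets of Kcnd3 and Kcnj2 lay under the arrays' lower quartile (6.53 to 6.65), and the file gives no signal over background to say what could be detected there.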

Other observations

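Kcnn4 and Kcnn3 code calcium-activated channels that endothelial cells use to start dilation by hyperpolarisation. Kcnn4, the intermediate-conductance calcium-activated channel, stood at 8.81, 8.68 and 8.77 log2 units after high salt, against 8.76, 8.13 and 9.07 after low salt, a difference of 0.10 ± 0.25 (SE). Kcnn3, a small-conductance channel, stood at 6.81, 6.87 and 6.70 after high salt, against 7.21, 6.75 and 7.09 after low salt, a difference of -0.22 ± 0.15. The sign of Kcnn4 was not settled, at -0.03 after median centring, -0.10 after quantile normalization and -0.16 without low salt replicate 2. Kcnn3 differed by -0.36 without low salt replicate 2 and by -0.13 without low salt replicate 1. Low salt replicate 2 was the lowest array for Kcnn4, and that array also had the lowest mean of endothelial markers (9.82). For Kcnn3 the lowest array was high salt replicate 3. The part of endothelial cells in the values of Kcnn4 and Kcnn3 was not tested. Neither gene passed the test (limma, adjusted p = 0.919 and 0.803).

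Chosen after its values were seen, Kcns3 was the 1 potassium channel gene outside the 9 with an unadjusted p below 0.05. It codes a silent Kv subunit, which forms no channel alone and alters the current of Kv partners. It stood at 7.23, 7.12 and 7.10 after high salt, against 6.55, 6.39 and 7.01 after low salt. The groups did not overlap, and the difference was 0.50 ± 0.18 (limma, adjusted p = 0.803) at the 29.9 percentile of level. Kcnab1, a Kv beta subunit that speeds inactivation, also chosen after its values were seen, differed by -0.28 ± 0.19, by -0.15 without low salt replicate 1 and by -0.42 without high salt replicate 3.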
